A study of Homo sapiens with 2 samples.

Results

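The genes described here encode cytosolic and mitochondrial molecular chaperones, together with their J-protein partners, in SNU449 cells. SNU449 is an established human liver cancer cell line. Members were chosen by gene symbol: the DNAJA, DNAJB and DNAJC genes, the HSPA, HSPB, HSPD, HSPE and HSPH genes, HSP90AA1, HSP90AB1, TRAP1 and the numbered CCT genes. HSPA5, DNAJB9, DNAJB11, DNAJC3 and pseudogenes were left out by the rule. A gene also had to reach 1 FPKM (fragments scaled to transcript length and library size) in at least 1 library. Of 74 such genes in RefSeq, 71 were listed in at least 1 file and 62 reached 1 FPKM, out of 14377 genes that did so in all. Of the 62 members, 61 reached 1 FPKM in both libraries, and DNAJC27 alone (1.35 and 0.75 FPKM) did so in 1. Just inside the limit was DNAJB13 at 1.03 and 1.04 FPKM, and just outside it was HSPA12B at 0.27 and 0.70 FPKM.

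The study compared 1 library of SNU449 cells given lentivirus with an shRNA against FZD2, a frizzled receptor for Wnt ligands, and 1 library of cells given a negative control shRNA. Both were collected 7 days after transduction, so both groups carry a lentiviral shRNA. The labels name no hairpin sequence. Below, these are the knockdown and the control library. With 1 library per group there is no replicate error, no difference could be tested, and each comparison below is between these libraries.

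Chaperones bind unfolded or partly folded proteins and keep them from aggregating. HSP70 proteins work in cycles of ATP hydrolysis that J-proteins (the DNAJ genes) start and nucleotide exchange factors end. HSP90 acts later, on clients such as kinases and steroid receptors. Closed chambers do part of the work: the CCT ring folds actin and tubulin in the cytosol, and HSP60 with its HSP10 lid folds proteins imported into mitochondria. Many of the cytosolic genes are induced by the transcription factor HSF1 under heat or proteotoxic stress, and cancer cells often carry high levels of them.

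Each ratio is log2 of FPKM + 1 in the knockdown library over FPKM + 1 in the control, and a gene is called higher or lower at 2-fold, a log2 ratio of 1 in size. Intervals are 95% intervals of the expected counts (the deposited estimated reads per gene). They cover counting error only, and treat reads as independent molecules. The knockdown library held 8234592 expected counts and the control 8436870. FZD2 itself was at 15.76 against 59.45 FPKM, a log2 ratio of -1.85, in the direction the labels give. Of 10 hepatocyte markers 2 reached 1 FPKM, the fibrinogen genes FGB (105.3 and 91.67 FPKM) and FGG (123.36 and 100.72 FPKM), while ALB was at 0.05 FPKM or unlisted. The growth protocol calls the cells prostate, and the prostate markers KLK3, KLK2 and TMPRSS2 were unlisted in both libraries. Of 5 leukocyte markers 4 were measured, with a summed level of 94.23 FPKM in the knockdown against 27.74 in the control, mostly LYZ (71.47 against 12.31 FPKM, shared reads), and CD3E was unlisted. Summed fibroblast markers stood at 338.79 against 431.08 FPKM, with COL1A1 at 119.9 against 100.13 and COL1A2 the other way at 198.48 against 306.36. Endothelial markers summed to 2.59 against 0.53 FPKM, mostly PECAM1 (2.33 against 0.41, shared reads), with VWF unlisted. Their part in the results below was not tested. In bulk RNA, fewer cells of a type and less RNA per cell cannot be told apart.

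The chaperone genes differed by class. The inducible cytosolic HSP90 gene HSP90AA1 and the small heat shock gene HSPB1 were over 2-fold higher in the knockdown library, and the mitochondrial HSP60 and HSP10 genes were over 2-fold lower. All measured CCT and cytosolic HSP70 genes had ratios below 0 on the deposited scale, in TPM, in CPM and with TMM scaling, but not all of them once the GC trend below was taken out. Of the 62 members, 4 were at least 2-fold higher and 5 at least 2-fold lower, with 53 between. Over all 14377 measured genes, 15.2% were higher and 7.41% were lower, so the count of lower members lies near the background. The members' median log2 ratio was -0.36, against -0.00 over all measured genes. With the GC trend taken out, 9 members were higher and 1 lower, beside 21.4% and 2.53% of all genes. In TPM, which moved the median of all genes by 0.14, 6 members were higher and 4 lower, beside 20.3% and 6.35%. Ratios as deposited were below 0 for 44 of 62 members (71.0%) and for 50.1% of all measured genes. Over the 71 listed genes that matched by symbol, with no limit on FPKM, the median was -0.29.

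**Figure D1:**
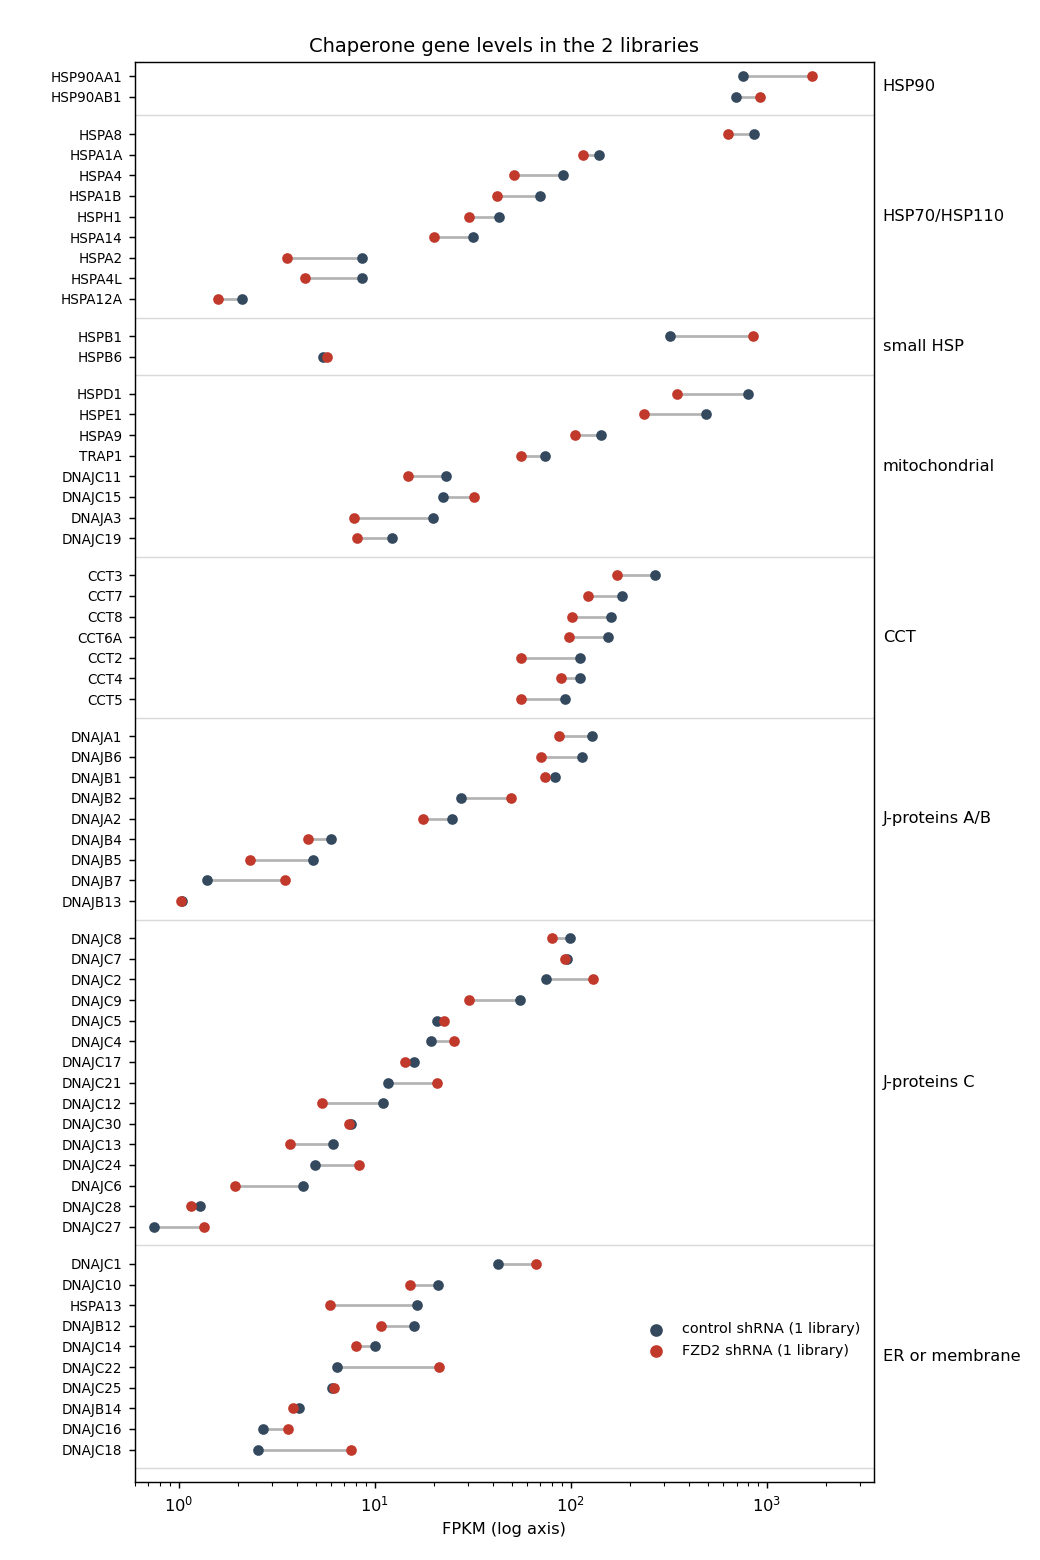
FPKM on a log axis of each of the 62 chaperone genes in the control shRNA library (dark points) and the FZD2 shRNA library (red points), 1 library each, grouped by class and joined by a grey line. HSP90AA1 and HSPB1 lie to the right of their control points, while every HSP70 and CCT gene lies to the left on this deposited scale.

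An expected count that is not whole is taken here as the sign of reads divided between genes, called shared reads. They occurred in 25 of the 62 members, and moved with the ratios over the transcriptome: 29.7% of such genes stood higher and 3.71% lower, against 4.19% and 10.2% of genes without. Among the 37 members without shared reads, 2 were higher (HSP90AA1 and HSPB1) and 2 lower (DNAJA3 and HSPA13), at a median of -0.43. The median over all 8154 genes without shared reads was -0.25, and 64.7% of them had ratios below 0, against 73.0% of these members.

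HSP90 is the most abundant cytosolic chaperone family, and both of its genes had ratios above 0. HSP90AA1 (gene identifier 3320), which encodes the stress-inducible HSP90-alpha, stood at 1700.23 FPKM against 751.31 in the control. The log2 ratio was 1.18, or 2.26-fold higher, from 47605 and 21614 expected counts (count log2 ratio 1.17, interval 1.15 to 1.20). Its counts were whole, and none of the 31-base words in its transcripts occurred in another listed gene. HSP90AB1, which encodes the constitutive HSP90-beta, was at 924.67 against 692.2 FPKM, a log2 ratio of 0.42 from 19863.2 and 15315.5 expected counts (count interval 0.38 to 0.44). The intervals of the pair do not overlap. The alpha form thus went from 1.09 to 1.84 times the beta form in FPKM. HSP90AB1 shared 1.96% of its words with the transcribed pseudogene HSP90AB4P, which was at 17.5 against 2.98 FPKM; its part in the HSP90AB1 value was not tested. Together the HSP90 genes took 0.819% of all expected counts after knockdown against 0.438% in the control, and 38.7% against 21.7% of the members' summed FPKM.

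Small heat shock proteins hold unfolded proteins without using ATP. HSPB1 (gene identifier 3315), which encodes HSP27 and also binds actin filaments, stood at 852.29 FPKM against 321.02 in the control. Its log2 ratio was 1.41, or 2.65-fold higher, from whole counts of 6289 and 2433 (count interval 1.34 to 1.47). HSPB6, a small heat shock protein of muscle, was at 5.68 against 5.45 FPKM (0.05, from 69 and 68 counts), so the class had 1 higher gene and 1 with nearly equal levels. HSPB2, HSPB7 and HSPB8 were listed below 1 FPKM, and HSPB3 and HSPB9 were unlisted.

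All 9 measured cytosolic or nuclear HSP70 and HSP110 genes had ratios below 0 (median -0.64), 7 of them also with the GC trend taken out, and 1 passed 2-fold. HSPA8, the constitutive HSC70, was the most abundant at 633.52 against 862.43 FPKM (-0.44, from 12980 and 18149 counts). The stress-inducible genes HSPA1A and HSPA1B were at 115.19 against 139.61 FPKM (-0.28) and 41.82 against 69.85 FPKM (-0.73). These neighbouring genes shared 74.3% and 73.1% of their 31-base words, mostly with each other, so the division of reads between them is uncertain. HSPA2 (gene identifier 3306), a testis-enriched HSP70, was at 3.57 against 8.62 FPKM, a log2 ratio of -1.07 from 83 and 205.92 counts (count interval -1.66 to -0.90), with shared reads in the control library. The exchange factors of the HSP110 type were also below 0: HSPA4 at 51.32 against 90.94 FPKM (-0.81), HSPA4L at 4.41 against 8.62 (-0.83) and HSPH1 at 30.36 against 43.16 (-0.49). HSPA14, which acts at the ribosome, was at 19.97 against 31.69 FPKM (-0.64), and HSPA12A at 1.58 against 2.11 FPKM (-0.27, from 78 and 104 counts, interval -0.82 to 0.06). The strictly inducible HSPA6 was at 0.38 against 0.50 FPKM, and HSPA1L at 0.41 against 0.69, both under the limit.

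**Figure D2:**
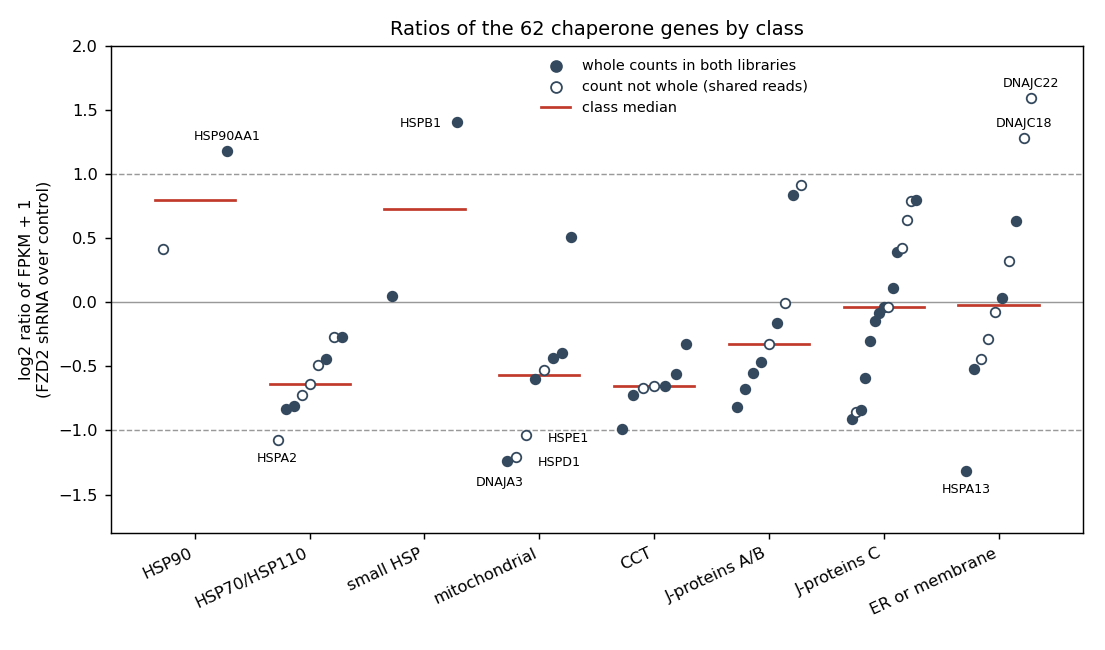
Log2 ratio of FPKM + 1 (FZD2 shRNA over control) of the 62 genes by class, with filled points for genes whose counts are whole in both libraries, open points for shared reads, red lines at class medians and dashed lines at 2-fold. The cytosolic HSP70 and CCT points all lie below 0 on this deposited scale, and the 4 genes above the upper dashed line come from 3 classes.

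In mitochondria, the HSP60 and HSP10 genes were lower together. They lie head to head, transcribed in opposite directions, and the pair is known to share a promoter. The bases between their RefSeq starts are shown for that reason, and the extent of the promoter was not tested. In the RefSeq windows of build GRCh38.p14 the interval is 104 bases long (chr2:197500275-197500378, given 5′ to 3′ on the + strand, in the direction of HSPE1), with a GC content of 74.0% and 13 CG pairs:
HSPD1-HSPE1 interval: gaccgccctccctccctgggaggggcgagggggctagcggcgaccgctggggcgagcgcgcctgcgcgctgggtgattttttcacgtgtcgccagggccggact

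HSPD1 (gene identifier 3329), the HSP60 chamber, stood at 347.27 FPKM against 804.76 in the control. The log2 ratio was -1.21, or 2.31-fold lower, from 6673.15 and 15955 expected counts (count interval -1.26 to -1.18). HSPE1 (gene identifier 3336), its HSP10 lid, was at 237.44 against 488.31 FPKM, a log2 ratio of -1.04 or 2.05-fold lower, from 1853.87 and 3915.96 counts (count interval -1.12 to -0.96). Their ratio to each other in FPKM was 1.46 after knockdown against 1.65 in the control. HSPE1 shared 17.7% of its words with the readthrough gene HSPE1-MOB4, which was at 8.28 against 9.51 FPKM, far below HSPE1 itself, and HSPD1 shared no words with another listed gene. Both genes had counts that were not whole.

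The other mitochondrial members had smaller differences, apart from DNAJA3. DNAJA3 (gene identifier 9093), the J-protein partner of mitochondrial HSP70, was at 7.87 against 19.88 FPKM, a log2 ratio of -1.24 from whole counts of 164 and 435 (count interval -1.64 to -1.11). HSPA9, the mitochondrial HSP70 itself, was at 105.09 against 142.23 FPKM (-0.43), and TRAP1, the mitochondrial HSP90, at 55.62 against 73.59 FPKM (-0.40). DNAJC19 of the import motor was at 8.12 against 12.18 FPKM (-0.53), and DNAJC11, an outer-membrane protein linked to cristae, at 14.83 against 23.05 FPKM (-0.60). DNAJC15, a paralogue of DNAJC19, was the exception at 31.94 against 22.23 FPKM (0.50, from 740 and 529 counts, interval 0.36 to 0.68). Of the 8 members classed here as mitochondrial 3 stood lower and 0 higher (median -0.57), where all measured genes gave 7.41% and 15.2%. With the GC trend taken out 1 stood lower (DNAJA3) and 1 higher (DNAJC15, 1.02), and 2 were lower in TPM and with a pseudocount of 5. Ratios were below 0 for 7 of the 8, and for 6 with the GC trend taken out. Their summed FPKM was 808 against 1586, a log2 ratio of -0.97. HSCB, a mitochondrial J-protein of iron-sulphur cluster assembly outside the symbol rule, was at 48.62 against 17.67 FPKM (1.41), with shared reads. DNAJC28 (-0.08) and DNAJC30 (-0.04) are counted below with the class C J-proteins and not among the 8 above.

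**Figure D3:**
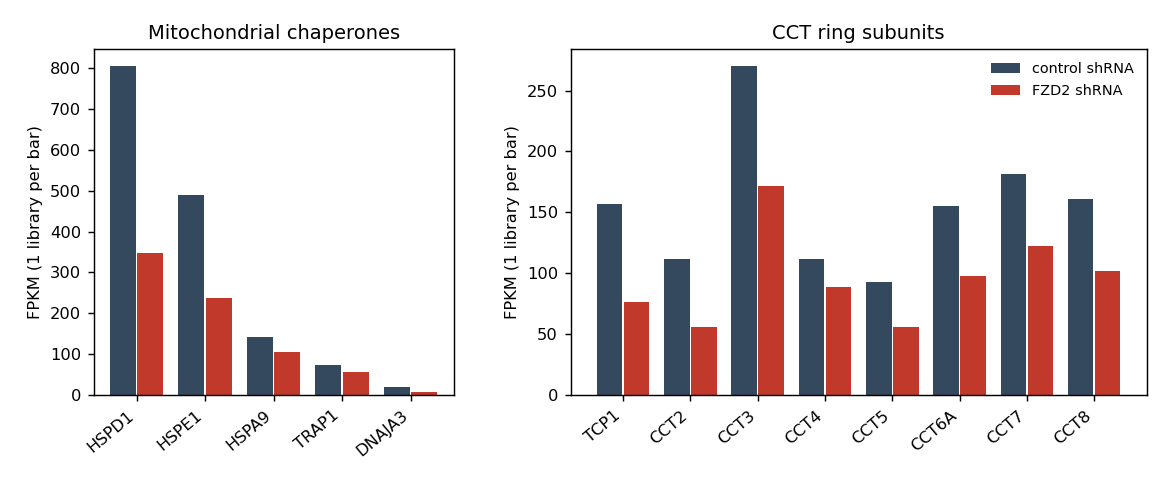
FPKM of 5 mitochondrial chaperone genes (left) and the 8 CCT ring genes (right) in the control shRNA and FZD2 shRNA libraries, with linear axes that differ between the panels and 1 library per bar. On the deposited scale each gene has its lower bar after FZD2 shRNA, from 804.76 to 347.27 FPKM for HSPD1 and from 111.59 to 88.92 FPKM for CCT4.

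All 7 CCT members had ratios below 0 on the deposited scale (6 of 7 with the GC trend taken out), and none passed 2-fold there, though CCT2 did with a pseudocount of 0.1 (-1.003) and, narrowly, in CPM. The 7 members ran from -0.99 (CCT2) to -0.32 (CCT4), with a median of -0.65. CCT2 was at 55.65 against 111.66 FPKM (from 901 and 1857 counts, interval -1.12 to -0.89) and CCT5 at 55.89 against 93.09 (-0.73). CCT6A was at 97.47 against 155.37 FPKM (-0.67), with shared reads: 12.7% of its words occurred in other listed genes, mostly its pseudogene CCT6P3. The most abundant subunit, CCT3, was at 171.36 against 270.23 FPKM (-0.65, from 2887.84 and 4838.34 counts), and CCT8 stood beside it at 101.78 against 160.67 (-0.65). CCT7 was at 122.33 against 181.28 FPKM (-0.56) and CCT4 at 88.92 against 111.59 (from 1675 and 2193 counts, interval -0.45 to -0.26). The intervals of CCT2 and CCT4 do not overlap, so the subunits differed in size beyond counting error. TCP1, the remaining ring subunit, which the symbol rule does not take, was at 76.11 against 156.52 FPKM (gene identifier 6950) and passed 2-fold at -1.03, though not after the GC trend was removed (-0.53). Over all 8 subunits the highest level was 3.08 times the lowest after knockdown against 2.90 times in the control. The testis form CCT6B was at 0.34 against 0.39 FPKM.

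The class A and B J-proteins, the general partners of cytosolic HSP70, had 7 of 9 ratios below 0 (6 in TPM or with TMM scaling, 3 with the GC trend taken out) and none past 2-fold on the deposited scale. Past 2-fold under other settings were DNAJB7 in CPM (1.12), in TPM (1.16), with a pseudocount of 0.1 (1.27) and with the GC trend taken out (1.43), DNAJB2 in TPM (1.002) and DNAJB5 with a pseudocount of 0.1 (-1.04). DNAJA1, the most abundant, was at 86.92 against 127.78 FPKM (-0.55, from 1732 and 2615 counts) and DNAJA2 at 17.59 against 24.73 (-0.47). DNAJB1 (HSP40), the heat-inducible partner of HSPA1A, was at 74.2 against 83.13 FPKM (-0.16). DNAJB6, which suppresses aggregation, was at 70.71 against 113.53 FPKM (-0.68), and DNAJB5 had the lowest ratio of the class at 2.30 against 4.82 FPKM (-0.82, from 47 and 102 counts). DNAJB2, a ubiquitin-binding J-protein abundant in neurons, stood apart at 49.8 against 27.44 FPKM (0.84, count interval 0.65 to 0.97), without shared reads. DNAJB7 had the highest ratio of the class (3.49 against 1.39 FPKM, 0.91, from 74.65 and 30.52 counts), with shared reads. DNAJB4 was at 4.56 against 5.97 FPKM (-0.33) and DNAJB13 at nearly equal levels.

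The 15 class C J-proteins outside the mitochondrial and membrane classes used here were mixed. On the deposited scale 9 ratios were below 0, 6 above and none past 2-fold (median -0.04). In TPM 5 lay below 0 and 10 above (median 0.11). With the GC trend taken out the split was also 5 and 10, and DNAJC2 (1.31), DNAJC21 (1.31) and DNAJC24 (1.16) were past 2-fold. DNAJC12 and DNAJC6 passed it in the other direction in CPM (-1.11 and -1.08) and with a pseudocount of 0.1 (-1.02 and -1.12). The highest ratio was that of DNAJC2, a ribosome-associated J-protein also known as MPP11, at 129.5 against 74.37 FPKM (0.79, from whole counts of 2369 and 1396, interval 0.70 to 0.89). DNAJC21, which takes part in ribosome assembly, was at 20.8 against 11.63 FPKM (0.79) and DNAJC24, of diphthamide synthesis, at 8.34 against 4.98 (0.64). Both had shared reads, with words in common with 1092 and 444 other listed genes. At the other end were DNAJC12, a co-chaperone of aromatic amino acid hydroxylases (5.41 against 11.05 FPKM, -0.91, from 43 and 105 counts), DNAJC6, auxilin (1.93 against 4.32, -0.86), and DNAJC9, a histone chaperone (30.28 against 55.17, -0.84). DNAJC8, a splicing-associated J-protein, was at 79.88 against 98.87 FPKM (-0.30), and DNAJC13, of endosomes, at 3.7 against 6.1 (-0.60). DNAJC7, which binds both HSP70 and HSP90, was nearly equal at 93.25 against 95.96 FPKM, and DNAJC5, the synaptic vesicle protein CSP-alpha, was at 22.47 against 20.76. The remaining members of the class, DNAJC4, DNAJC17, DNAJC27, DNAJC28 and DNAJC30, lay between -0.14 (DNAJC17) and 0.43 (DNAJC27).

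Although the set is named for the cytosol and mitochondria, the symbol rule also takes 10 genes whose products lie in the endoplasmic reticulum or its membrane or in other membranes. They held the highest and the lowest ratio of the 62. DNAJC22 (gene identifier 79962) was at 21.28 against 6.41 FPKM, a log2 ratio of 1.59 from 707.58 and 219.38 expected counts. DNAJC18 (gene identifier 202052) was at 7.56 against 2.53 FPKM (1.28, from 322.8 and 110.96 counts). Both had shared reads, and 4.95% and 3.74% of their words occurred in 1055 and 520 other listed genes; the part of shared reads in their ratios was not tested. HSPA13 (gene identifier 6782), a microsomal HSP70-like protein, was at 5.94 against 16.33 FPKM, a log2 ratio of -1.32, from whole counts of 198 and 559 (count interval -1.70 to -1.23). DNAJC1 was the most abundant of the class at 66.39 against 42.5 FPKM (0.63, from whole counts of 1215 and 799). DNAJC10, a disulfide reductase, was at 15.11 against 20.91 FPKM (-0.44), and DNAJB12, which takes part in membrane protein degradation, at 10.77 against 15.89 (-0.52). DNAJC14, DNAJB14, DNAJC25 and DNAJC16 lay between -0.29 (DNAJC14) and 0.32 (DNAJC16). Without these 10 genes, 2 of 52 members were higher and 4 lower (median -0.44), beside 15.2% and 7.41% of all measured genes without them.

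The ratios also depend on the gene lengths in the files, which can differ between libraries. Lengths were equal in both libraries for 26 of the 62 members and differed by over 10% for 5, CCT7, DNAJB4, DNAJB14, DNAJC12 and HSPA14. CCT7 had a length of 1551.04 bases after knockdown against 1900.16, so its count log2 ratio (-0.87, interval -0.96 to -0.78) was larger in size than that of its FPKM (-0.56). DNAJB14 had lengths of 3637.52 and 5408.64 bases, and its count ratio was -0.68 (interval -1.03 to -0.34) where its FPKM ratio was -0.08. HSPB1 and HSPE1 had equal lengths in both libraries, and HSP90AA1 had 3366.14 and 3367.33 bases. Their FPKM and count ratios therefore nearly coincided.

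Transcript GC content moved with the ratios as well. Over measured genes without shared reads, the fitted trend was -0.51 at the GC content of HSPD1 (43.1%), -0.50 at that of HSP90AA1 (44.1%) and 0.17 at that of HSPB1 (64.5%). The members' median GC content was 45.3%, against 49.0% over all measured genes. With the trend taken out, the members' median was 0.011 and 31 ratios lay below 0 and 31 above. HSP90AA1 was then at 1.68 and HSPB1 at 1.23, both still past 2-fold, and DNAJA3 was at -1.04. HSPD1 (-0.70), HSPE1 (-0.69), HSPA2 (-0.95) and HSPA13 (-0.79) no longer passed it. Of the CCT genes 6 of 7 remained below 0 (median -0.28), with CCT4 at 0.18, and of the HSP70 and HSP110 genes 7 of 9, with HSPH1 (0.02) and HSPA12A (0.15) above and HSPA8 at -0.00. The part of GC content in each gene's ratio was not tested further.

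**Figure D4:**
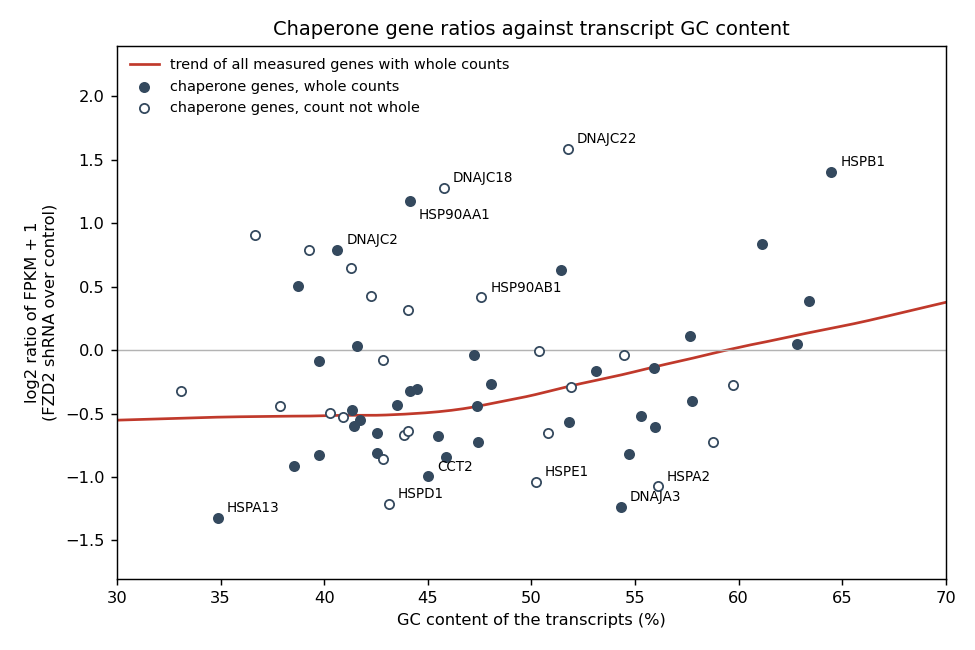
Log2 ratio (FZD2 shRNA over control) of the 62 chaperone genes against the mean GC content of their transcripts in percent, with the smoothed trend of all measured genes without shared reads as a red line. HSP90AA1 lies 1.68 above the trend and HSPB1 1.23, and HSPD1 lies below it, at -0.70 once the trend is taken out.

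HSF1 binds heat shock elements, inverted repeats of the unit GAA. The motif GAANNTTCNNGAA, 3 units on either strand, was searched in RefSeq promoter windows of 300 bases (250 before to 50 after a start, GRCh38.p14), with overlapping matches merged. It was found in 0.490% of all 35116 windows and 0.486% of 11101 measured genes with a window. Of 57 members with a window, 6 held it. The 2-unit forms GAANNTTC and TTCNNGAA, which overlap it, were found in 13.5% of windows, in 13.6% of measured genes and in 19 members. Their sites are printed, 5′ to 3′ on the gene's strand with the motif in capitals, because these 6 genes with the same letters had ratios from -1.21 to 1.18:
HSP90AA1 (chr14:102087114-102087138, - strand): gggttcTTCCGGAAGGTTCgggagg
HSP90AB1 (chr6:44247772-44247796, + strand): agcaggTTCTGGAAGATTCatgggc
HSP90AB1 (chr6:44247825-44247849, + strand): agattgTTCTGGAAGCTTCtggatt
HSPA8 (chr11:123062348-123062372, - strand): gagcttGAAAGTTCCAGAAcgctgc
HSPA8 (chr11:123062173-123062197, - strand): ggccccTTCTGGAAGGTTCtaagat
HSPD1 (chr2:197500062-197500090, - strand): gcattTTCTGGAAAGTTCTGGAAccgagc
DNAJB6 (chr7:157336867-157336891, + strand): agccgaGAACCTTCGCGAAggtggg
DNAJA1 (chr9:33025270-33025294, + strand): cgggcgGAACTTTCCAGAAcgctcg

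In HSP90AA1 75 bases separate the motif from a downstream listed start, and in HSPD1 the merged motif lies 227 bases before the second, inner start and not in the 104-base interval printed above. The HSPB1 window held only the 2-unit form GAANNTTC (chr7:76302485-76302504, + strand), 174 bases before the start:
HSPB1: acgagaGAAGGTTCcagatg
Of the 6 genes with the 3-unit motif, 1 was higher (HSP90AA1) and 1 lower (HSPD1), with HSP90AB1 at 0.42 and HSPA8, DNAJA1 and DNAJB6 below 0. Their median was -0.50, and that of the 54 measured genes with the motif was -0.21. A match is a description of letters, and binding was not measured here. CCT6A, DNAJC1, DNAJC22, DNAJC24 and HSPA14 had no window in the table.

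On the deposited scale 20 of the 26 measured heat shock factors and classical targets (76.9%) had ratios below 0. That share was 50.1% over all measured genes and 64.7% over those without shared reads. HSF1 was at 41.08 against 44.19 FPKM (-0.10), with a count interval that held 0 (-0.25 to 0.04) and 0.05 in TPM. HSF2 was at 4.33 against 7.18 (-0.62), while HSF4 was at 3.74 against 1.44 (0.96, shared reads). Of the 26 measured genes of the list of heat shock factors and their targets, 2 stood higher and 3 lower (median -0.47), and of the 13 that are not members 0 stood higher and 1 lower (median -0.52), beside 15.2% and 7.41% of all measured genes. With the GC trend taken out the median of the 26 was -0.079, and HSPD1 and HSPE1 were no longer past 2-fold. That lower gene was BAG3, an HSP70 exchange factor of selective autophagy, at 44.26 against 96.13 FPKM (-1.10). UBB, a polyubiquitin gene, was at 237.05 against 396.75 FPKM (-0.74, shared reads), and HSBP1, which binds HSF1, at 81.25 against 100.51 (-0.30).

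The list of HSP90 and HSP70 co-chaperones was mostly below 0 (19 of 27, or 70.4%, median -0.33). Over all measured genes 50.1% were below 0, and 64.7% of those without shared reads. The list includes TPR, a nuclear pore gene rather than a co-chaperone, whose own ratio is that median (25.97 against 32.84 FPKM, -0.33). With the GC trend taken out the median of the list was 0.021. Of the 27, 0 stood higher and 3 lower, beside 15.2% and 7.41% of all measured genes, or 4.19% and 10.2% of those without shared reads. The lower genes were BAG2, which inhibits the ubiquitin ligase CHIP (9.66 against 23.99 FPKM, -1.23), BAG3, and TOMM34, of mitochondrial import (21.91 against 47.81, -1.09). STIP1 (HOP), which passes clients from HSP70 to HSP90, was at 126.33 against 238.36 FPKM (-0.91), the p23 gene PTGES3 at 106.85 against 166.25 (-0.63), the kinase adaptor CDC37 at 90.89 against 121.13 (-0.41) and AHSA1, which activates the HSP90 ATPase, at 80.38 against 129.63 (-0.68). The other 8 of the 27 lay above 0. Among them were HSPBP1 at 31.03 against 16.85 (0.84, and 1.01 in TPM) and STUB1 at 81.37 against 55.11 (0.55). With the GC trend taken out BAG2 (-0.71) and TOMM34 (-0.86) no longer passed 2-fold, while BAG3 did (-1.01).

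The list of chaperonin partners, which also counts the ring subunit TCP1, had 0 higher and 1 lower of 16 measured (median -0.35). All measured genes gave 15.2% and 7.41%. The lower gene was TCP1, which fell short in TPM (-0.88) and with a pseudocount of 5 (-0.99). Outside the ring, PDCL3 lay just short of 2-fold at 18.42 against 37.55 FPKM (-0.99, shared reads). PDCL3 passed it with a pseudocount of 0.1 (-1.02), and was at -0.56 with the GC trend taken out. Prefoldin, which delivers clients to CCT, had PFDN6 at 90.4 against 119.02 (-0.39) and its most abundant subunit PFDN5 at 345.98 against 271.91 (0.35). Its other subunits VBP1 (-0.50), PFDN2 (-0.31), PFDN4 (-0.20) and PFDN1 (-0.19) were below 0. With the GC trend taken out VBP1 (0.02), PFDN4 (0.33) and PFDN1 (0.19) lay above 0. TBCA, a tubulin folding cofactor, was at 252.03 against 274.55 FPKM (-0.12, shared reads), and the prefoldin-like UXT at 113.19 against 93.4 (0.27). Of 15 mitochondrial quality control genes 2 stood higher and 0 lower (median -0.08), close to the 15.2% of higher genes overall. The higher genes were CLPX, the ATPase of the matrix protease ClpXP (34.49 against 13.4 FPKM, 1.30, shared reads), and CLPB, a disaggregase (10.79 against 4.69, 1.05, no shared reads). The most abundant proteases of the list, YME1L1 (56.07 against 74.45, -0.40), PITRM1 (42.62 against 58.27, -0.44) and LONP1 (43.98 against 50.13, -0.18), were below 0. LONP1 was nearly equal in TPM (-0.03), and the protease HTRA2 was above 0 (10.71 against 8.32, 0.33). Of the 15 genes 10 (66.7%) had ratios below 0, beside 50.1% of all measured genes. GRPEL1, the exchange factor of HSPA9, was at 17.24 against 29 (-0.72).

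Among chaperones of the endoplasmic reticulum that the rule leaves out, HSPA5 (BiP) was at 343.97 against 475.85 FPKM (-0.47), DNAJB11 at 73.29 against 93.66 (-0.35) and HSP90B1 (GRP94), the HSP90 of that compartment, at 557.53 against 485.1 (0.20). The difference of HSP90AA1 was thus larger than that of HSP90AB1, HSP90B1 (0.20) and TRAP1 (-0.40), on the same scale and without a test.

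**Figure D5:**
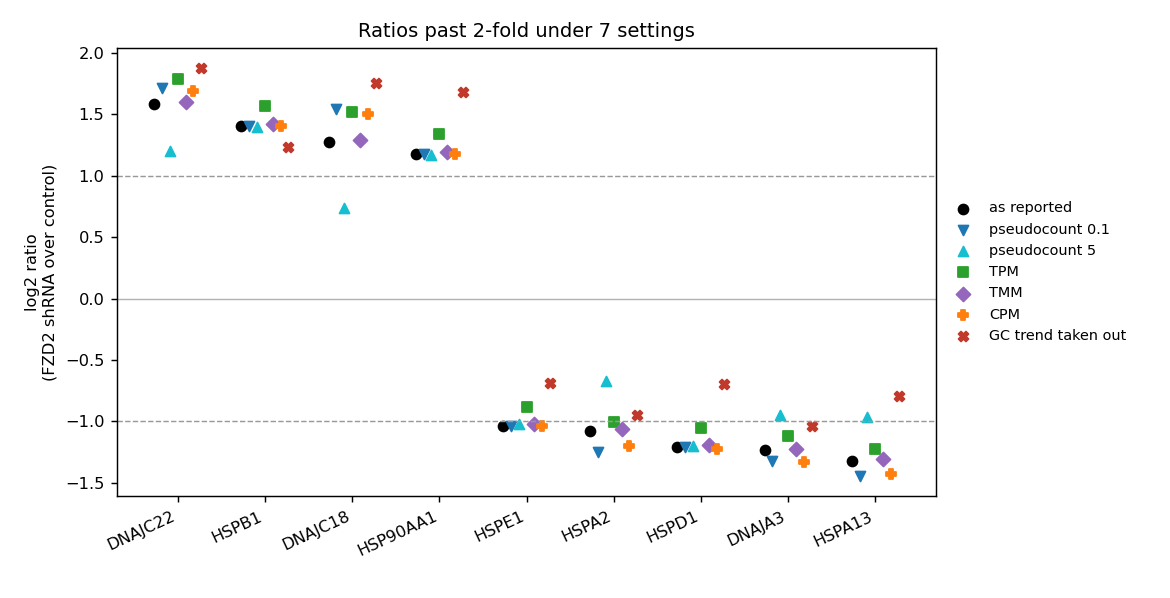
Log2 ratio (FZD2 shRNA over control) of the 9 chaperone genes past 2-fold as reported and under 6 other settings (pseudocounts of 0.1 and 5 FPKM, TPM, TMM scaling, CPM from counts, and the GC trend taken out), with dashed lines at 2-fold. DNAJC22, HSPB1 and HSP90AA1 stay above the upper line in each, and no gene changes sign.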

How the data were processed

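RNA of 2 SNU449 libraries (1 FZD2 shRNA, 1 control shRNA) was selected for poly(A) tails on oligo(dT) beads and reverse transcribed from random primers, per the labels' protocols. Bowtie2, HISAT and hg19 appear in the submitters' processing notes, with no version. The program that counted, its annotation and its use of strand: not given in the sources used here. Per the file headers, the authors deposited expected counts per gene, not normalized, together with gene lengths and FPKM. The authors' FPKM values are scaled to length and library size. Genes unlisted in a file were set to 0, and log2 ratios were computed here with a pseudocount of 1 FPKM, which understates the ratios of low genes.

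Symbols came from RefSeq by gene identifier, and 53 measured genes had none. The members, classes and lists were chosen with earlier results of these data known. By rule, members past 2-fold and the most abundant, highest and lowest of each class are given with counts. Other members are given by FPKM and ratio or by a range of ratios, and of each list the genes past 2-fold and up to 4 more of high FPKM. HSF1, HSF2, HSF4, GRPEL1, HSCB, HSP90B1, TPR, HTRA2, VBP1, PFDN1, PFDN2, PFDN4, PDCL3, HSPBP1, STUB1 and the genes that share sequence with members fall outside this rule. Their values were known when they were named. The values of 1 listed gene are not reported here.

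Intervals are exact conditional binomial intervals on rounded expected counts, scaled to the library totals. A count was called not whole beyond a tolerance of 0.001. GC content and shared 31-base words used GENCODE release 29 transcripts, matched by RefSeq accession for 96.1% of measured genes and all 62 members. The GC trend was a lowess fit (fraction 0.3) to genes without shared reads. Alternatives changed the pseudocount, filters, scaling, fold limit, shared reads and GC trend. The call rule and intervals were run on simulated Poisson counts. These hold counting error only, so the run does not cover library or culture variation. Computation used R 4.3.3 with edgeR 4.0.16 (TMM factors only) and Python 3.11.15 with matplotlib 3.10.9, statsmodels 0.14.6, SciPy 1.17.1, pandas 2.3.3 and NumPy 2.4.6.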

Additional observations from a re-analysis of the deposited data

How the results depend on the processing

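The counts and medians rest on 1 library per group, so depth limits low genes, and culture or library effects cannot be told apart from the shRNA. No paired analysis was possible because each group holds 1 library, and none could be left out. As reported, 4 members were higher and 5 lower (median log2 ratio -0.36). Of 66 partner genes, with TCP1 and TPR counted among them, 2 were higher and 4 lower (median -0.30), beside 15.2% and 7.41% of all genes. Lower members numbered 9 with a pseudocount of 0.1, 2 with a pseudocount of 5 and 8 in CPM (median -0.46), beside 12.2%, 2.09% and 10.1% of all genes. Partner genes were 4 higher and 7 lower with a pseudocount of 0.1, 1 and 1 with a pseudocount of 5, and 7 lower in CPM. Of all genes, 19.9% were higher with a pseudocount of 0.1 and 6.5% with a pseudocount of 5. In TPM, which moved the median of all genes to 0.14, the members' median was -0.22, and the partners were 4 higher and 1 lower (median -0.15). All genes gave 20.3% and 6.35% there. At 1.5-fold, 10 members were higher and 21 lower, and 6 and 14 partners, beside 26.1% and 21.7% of all genes. At 4-fold, 0 members and 0 partners passed in either direction, and FZD2 (-1.85) fell short. All genes gave 2.66% higher and 0.41% lower at that limit. Without shared reads, 2 members were higher and 2 lower of 37, and 1 partner was higher, beside 4.19% and 10.2% of all such genes. With the GC trend taken out, which moved the median of all genes to 0.23, 9 members were higher and 1 lower, beside 21.4% and 2.53% of all genes. The members' median turned to 0.0105, the partners' median turned to 0.0326 and 1 partner was lower. Without the endoplasmic reticulum members 2 were higher, beside 15.2% of all genes. The cause of these shifts was not tested beyond the construction of each setting. The filters on FPKM, a minimum of 50 reads, TMM scaling and a median ratio set to 0 left these counts within 1.5 times and the medians within 0.1. Over 8 settings of scale and pseudocount, DNAJC22 (1.20 to 1.88), HSPB1 (1.23 to 1.57) and HSP90AA1 (1.17 to 1.68) stayed past 2-fold. DNAJC18 fell short with a pseudocount of 5 (0.74), as did DNAJA3 (-0.95), HSPA13 (-0.96) and HSPA2 (-0.67), HSPE1 did in TPM (-0.88), and HSPD1 (-0.70), HSPE1 (-0.69), HSPA2 (-0.95) and HSPA13 (-0.79) did with the GC trend taken out.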
